A study of Picromerus lewisi with 6 samples.

Results

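Glycosidases are enzymes that cut the bonds between sugars, or between a sugar and another molecule. Clusters named as alpha-amylases or other glycosidases were followed in venom gland libraries of the predatory stink bug Picromerus lewisi. A transcript cluster counted as a member if its first protein match or its Swiss-Prot match carried one of 11 enzyme name fragments, amylase and myrosinase among them. Names of inhibitors and chitin-related names were to be dropped, as were clusters whose nucleotide match names a noctuid moth or mouse, but 0 of the matched clusters met either condition. The rule gave 46 of 22242 clusters, of which 2 matched by accident: Cluster-8605.0 and Cluster-8605.1 are named tubulin monoglutamylase TTLL4, a name that happens to contain the letters of amylase. The other 44 carried a glycosidase name, and the best protein match of all 46 came from a stink bug, Halyomorpha halys for 24 and Nezara viridula for 22.

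The samples were 3 adult gland libraries and 3 gland libraries of nymphs in the 5th instar, all of 1 species, and the labels name no treatment, sex, diet or strain. Whether a library came from 1 animal or a pool is not given, so each p-value measures the spread between libraries, which may be technical. Values are FPKM, that is, fragments scaled to the length of the cluster and to the fragments mapped in the library. Fragment totals estimated from the FPKM steps ran from 13927015 to 19084662 per library. The libraries were uneven. Adult replicate 1 listed 4927 clusters at 1 FPKM or more and adult replicate 2 listed 18155, with 8679 in adult replicate 3 and 10862 to 14040 in the nymphs. The bug's own mitochondrial transcripts held 18.6% of the FPKM in adult replicate 2 and 52.7% to 84.5% in the other 5 libraries. Clusters whose nucleotide match names a noctuid moth, 76 in all, held 2.38% to 13.6% of the FPKM per library. Of these, 3, 7 and 4 were at 1 FPKM or more in adult replicates 1, 2 and 3, against 57, 41 and 27 in the nymph replicates. The part of moth RNA in the stage differences was not tested. The gland label was met by venom serine proteases, 67 clusters that together held 2.20% to 32.3% of the FPKM per library, the highest value in adult replicate 2.

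Alpha-amylase opens starch and glycogen at internal bonds, and alpha-glucosidases such as maltase release glucose from the short chains that remain. Glycoside hydrolase family 1 holds beta-glucosidases, among them the myrosinases, which in aphids and flea beetles cleave plant glucosinolates, and the lactase-phlorizin type known from the vertebrate gut. A different set of glycosidases works inside every cell: glucosidases and mannosidases of the endoplasmic reticulum (ER) and Golgi trim the sugar chains of new glycoproteins, and lysosomal enzymes remove single sugars from spent glycoproteins, glycolipids and glycogen. Stink bugs digest outside the body by injecting saliva, and alpha-amylase is a known salivary enzyme of the family.

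By role, the 46 clusters comprised 3 alpha-amylases, 5 alpha-glucosidases or maltases, 9 family 1 enzymes, 11 clusters of ER or Golgi glycan processing, 13 lysosomal enzymes, 3 clusters of the non-lysosomal glucosylceramidase and the 2 TTLL4 clusters. Their median length was 1597 bases against 589.5 over all clusters, and 11 were shorter than 600 bases. Short clusters can be pieces of 1 transcript, and near-identical copies share reads, so a cluster is not necessarily a gene. Most members were scarce: 3 of the 46 exceeded 100 FPKM in any library, and 26 were listed at 0 in at least 1 library. Members at 1 FPKM or more numbered 15, 39 and 27 in adult replicates 1, 2 and 3, against 38, 32 and 30 in nymph replicates 1, 2 and 3. Adult replicate 2 thus listed the most members, as it did of all clusters, and adult replicate 1 the fewest.

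**Figure D1:**
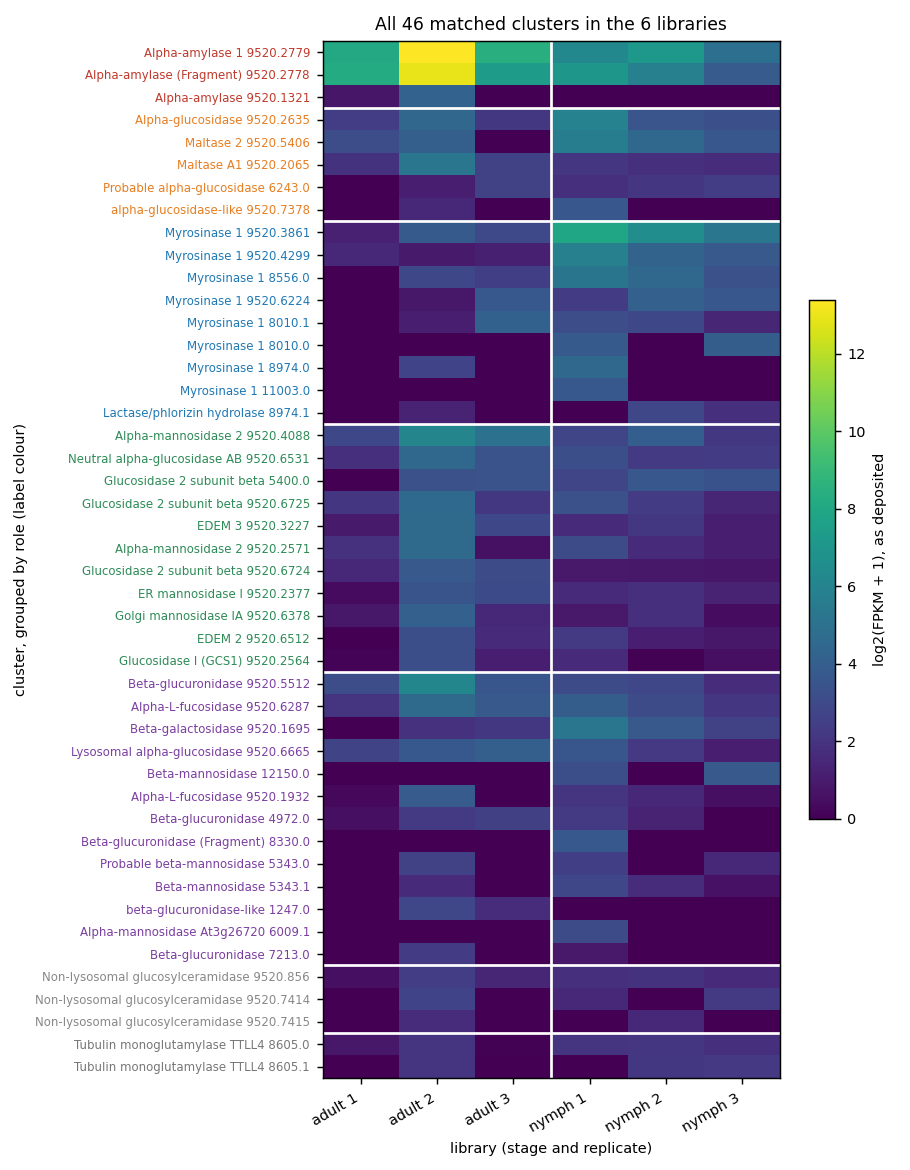
Each row is 1 of the 46 matched clusters, grouped by role with label colours, each column is a library, and colour gives log2(FPKM + 1) as deposited. The 2 abundant amylase clusters stand out in the adult columns, with adult replicate 2 brightest, and the upper family 1 rows stand out in the nymph columns.

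Amylases and family 1 enzymes stood on opposite sides of the stage comparison, yet no member passed the test across all clusters. Of the 3 amylase clusters, the 2 abundant ones were higher in every adult library than in any nymph library on the deposited scale, and the family 1 clusters named myrosinase 1 with the highest levels were more abundant in every nymph library. Of the 46 members, 35 reached the filter of 1 FPKM in at least 3 libraries and were tested with limma on log2(rescaled FPKM + 1). At a limma adjusted p under 0.05, 0 of the 35 were called in either direction, against a background of 0.234% over the 11961 clusters tested (0.1% higher in adults against 0.134% lower). At an unadjusted p under 0.05, 11 of the 35 members passed, 6 higher and 5 lower in adults, beside 9.05% of all clusters tested (2.95% higher and 6.09% lower). Rescaled values did not overlap between stages for 4 members higher and 4 lower in adults, beside 3.95% and 10.1% of all clusters tested. As deposited, the counts were again 4 and 4, beside 2.06% and 6.6%. Cluster-9520.6724 is among the members higher in adults at an unadjusted p under 0.05 and on both scales. It reached the filter through the adult libraries alone, so some difference was bound to show. For this comparison, in simulated data of 11961 clusters, limma called 2 of 50 clusters changed by 4-fold and 27 of 50 changed by 16-fold, so a miss says little about differences of ordinary size. The changed clusters were drawn from those with a mean log2 value above 3, and many members lay below that level.

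The median difference over the 35 members was -0.08 on the log2 scale, adult minus nymph, against -0.29 over all clusters tested. That median hides the roles. The 2 tested amylases lay at 4.16 and 4.23, the 6 tested family 1 clusters between -3.70 and -0.93, the 11 glycan-processing clusters between -1.27 and 2.03 and the 8 lysosomal clusters between -2.70 and 2.01. Of all clusters tested, 38.4% lay above 0. In bulk tissue, fewer cells of a type and less RNA per cell cannot be told apart.

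**Figure D2:**
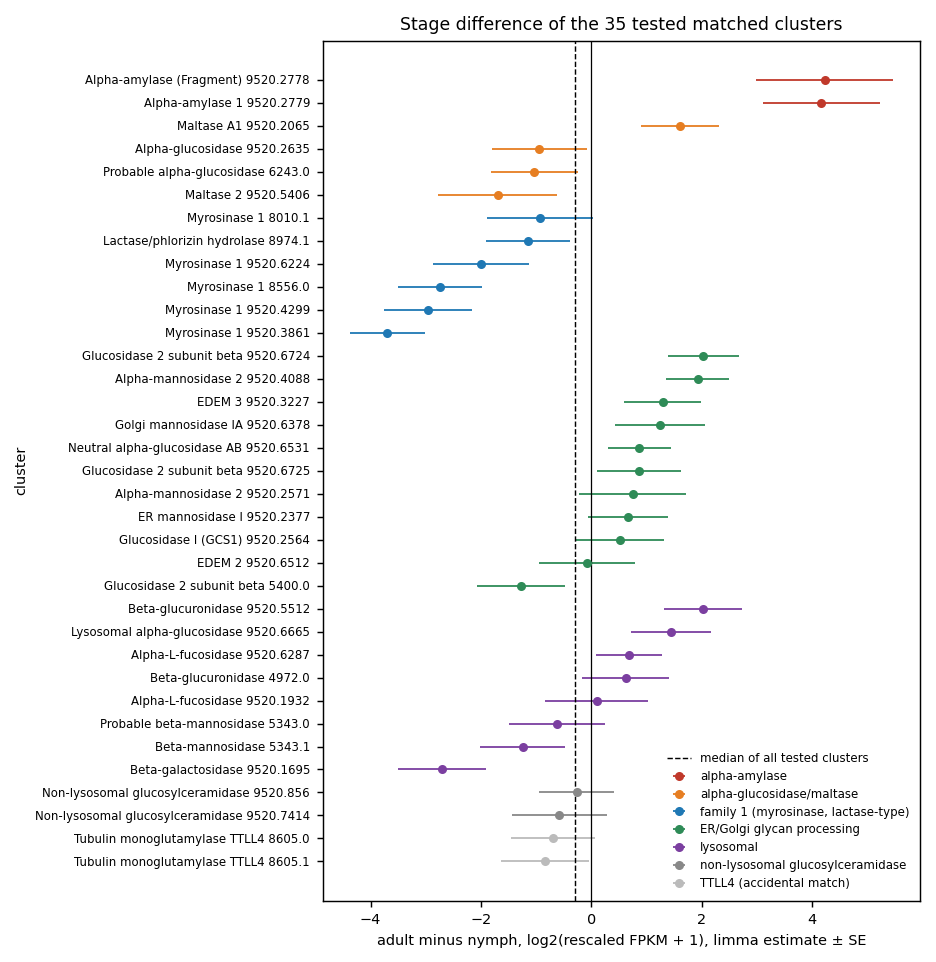
Points are limma estimates of adult minus nymph on the log2(rescaled FPKM + 1) scale for the 35 tested clusters, bars are 1 SE, colours are roles, and the dashed line is the median of all tested clusters at -0.29. The 2 amylases lie farthest right and the 6 family 1 clusters all lie left of 0, while 38.4% of all clusters tested lie above 0.

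Alpha-amylase had the highest mean FPKM of the members over the 6 libraries. Cluster-9520.2779 (868 bases, named alpha-amylase 1, with the amylase catalytic domain) was at 266, 10644 and 333 FPKM in adult replicates 1, 2 and 3, against 73.5, 141 and 28.5 in nymph replicates 1, 2 and 3. Cluster-9520.2778 (1342 bases, with the carboxyl-terminal all-beta domain of amylases) was at 303, 7741 and 162 FPKM in adult glands against 134, 55.5 and 13.5 in the nymph libraries. In both, adult replicate 2 stood far above the other 5 libraries and nymph replicate 3 was lowest, and the stages did not overlap on the deposited scale. Both had the same Nezara viridula protein as best match, the first with the catalytic domain and the second with the domain that follows it in amylases, and whether they are pieces of 1 transcript was not tested. Their FPKM ratio, the first over the second, was 0.878, 1.38 and 2.06 in adults against 0.547, 2.55 and 2.12 in nymphs, so the balance between them varied within each stage.

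After rescaling, Cluster-9520.2779 was at 2544 ± 3428 FPKM (SD, n = 3) in adults against 68.2 ± 37.7 in nymphs, a log2 difference of 4.16 ± 1.06 SE (limma adjusted p = 0.22). Cluster-9520.2778 was at 1961 ± 2431 and 61.9 ± 61.7, a log2 difference of 4.23 ± 1.24 SE (limma adjusted p = 0.29), and its rescaled values overlapped between stages. The SD in adults exceeded the mean for both, and adult replicate 2 set that spread. Without adult replicate 2 the log2 differences were 2.85 and 2.92 (limma adjusted p = 0.17 and 0.33). Without adult replicate 3, the lower of the rescaled adult libraries, both passed, with log2 differences of 5.28 and 5.64 (limma adjusted p = 0.039 and 0.041). Over the 6 fits that each left out 1 library, neither cluster changed direction.

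The fragments behind these levels were many. The 3 amylase clusters took 6613, 218431 and 6856 fragments in adult replicates 1, 2 and 3, against 2872, 2662 and 551 in nymph replicates 1, 2 and 3. Counting error is therefore small beside the spread between libraries, although amplified copies of 1 molecule are not separated. Ranked by FPKM among all clusters, Cluster-9520.2779 came 86th, 34th and 174th in adult glands against 465th, 279th and 644th in the nymph libraries. Amylases made up 91.0%, 97.4% and 72.6% of the summed FPKM of all members in adults against 23.5%, 40.2% and 19.1% in nymphs. The remaining amylase, Cluster-9520.1321 (1885 bases), carried no annotated domain and was named from a match to part of another stink bug amylase; it was at 0.76, 17.4 and 0 FPKM in adults, with 0 listed in all 3 nymph libraries. It missed the filter and was not tested, and its fragments numbered 17, 412 and 0 in adults.

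Venom serine proteases give a yardstick within each library that no rescaling touches, but not one shown to be level between stages. Of the 67 clusters, 12 were higher in every adult library than in any nymph library, and 4 were lower in every one. Over all clusters tested, these shares were 2.06% and 6.6%. The summed FPKM of the 67 overlapped between stages. Some of them, named phenoloxidase-activating enzyme, also met the search terms for blood cells (haemocytes). Per 1000 FPKM of venom serine protease, amylase stood at 8.29, 34.2 and 3.66 FPKM in adult replicates 1, 2 and 3. In nymph replicates 1, 2 and 3 it stood at 2.39, 1.10 and 0.615. Every adult library lay above every nymph library, with adult replicate 3 and nymph replicate 1 closest. The search terms for gut tissue found 1 cluster, Cluster-9520.560 (gut esterase 1), at 2.33, 8.04 and 0 FPKM in adults against 0, 0.21 and 0.22 in nymphs, and no cluster for peritrophic proteins or intestinal mucin. Its part in the amylase difference was not tested.

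**Figure D3:**
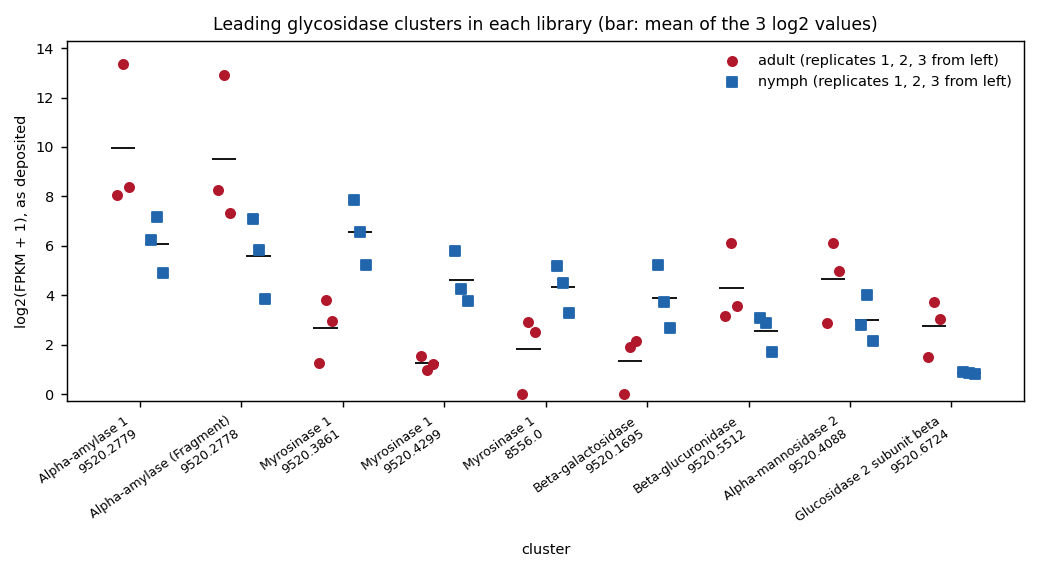
Points are log2(FPKM + 1) as deposited for 9 clusters, with adult libraries as red circles and nymph libraries as blue squares in replicate order and a bar at the mean of each stage. For both amylases the adult points sit above the nymph points, for the 3 myrosinase clusters and beta-galactosidase below them.

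Of the 9 family 1 clusters, 6 were tested and 0 were called, beside 0.234% of all clusters tested. Of the 6, 3 were higher in every nymph library than in any adult library. Over all clusters tested, that share was 6.6% as deposited and 10.1% after rescaling. Cluster-9520.3861 (1977 bases, named myrosinase 1), the most abundant of the 9, was at 1.36, 12.8 and 6.78 FPKM in adult glands against 232, 92.7 and 36.4 in the nymph libraries. Its stages did not overlap, and nymph replicate 1 was highest. Rescaled, it was at 5.65 ± 1.87 FPKM (SD, n = 3) in adults against 110.6 ± 101.95 in nymphs, a log2 difference of -3.70 ± 0.68 SE (limma adjusted p = 0.069), the smallest p among the members. It did not pass in any of the 6 fits that left out 1 library (limma adjusted p from 0.059 to 0.29), and its log2 difference then ran from -4.29 to -3.00. It passed after quantile normalization (limma adjusted p = 0.04), with a filter on the mean FPKM (limma adjusted p = 0.0066) and with no filter (limma adjusted p = 5.3e-05).

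Further clusters named myrosinase 1 had a like pattern of levels. Cluster-9520.4299 (1640 bases) was at 1.91, 0.99 and 1.30 FPKM in adults against 54.9, 18.25 and 12.45 in nymphs (log2 difference -2.96 ± 0.79 SE, limma adjusted p = 0.24). Cluster-8556.0 (1751 bases) was at 0, 6.54 and 4.64 FPKM in adults against 35.4, 21.7 and 8.85 in nymphs (log2 difference -2.75 ± 0.76 SE, limma adjusted p = 0.26). In both, as in Cluster-9520.3861, every nymph library exceeded every adult library, with nymph replicate 1 highest and nymph replicate 3 lowest of the nymphs. Cluster-9520.6224 (1554 bases) did not share it: it was at 0, 0.80 and 12.1 FPKM in adults against 4.14, 16.4 and 11.5 in nymphs, so the stages overlapped (log2 difference -2.00 ± 0.87 SE, limma adjusted p = 0.53). Cluster-9520.4299 also passed when no filter was applied (limma adjusted p = 0.02). Leaving out 1 library moved each of these 3 by over 1.5 times in fold: Cluster-9520.4299 lay at -2.32 without nymph replicate 1 and -3.86 without adult replicate 1, Cluster-8556.0 at -2.07 without adult replicate 1, and Cluster-9520.6224 at -2.87 without adult replicate 3.

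Some markers of other tissues also stood higher in nymphs. Of 49 muscle clusters, 9 were higher in every nymph library than in any adult library and 1 was lower in every one. Over all clusters tested, the shares as deposited were 6.6% and 2.06%. The muscle list summed to 91.8 to 469 FPKM in adults against 329 to 620 in nymphs. Muscle myosin heavy chain (Cluster-9520.4284), 1 of the 9, was at 2.98, 9.04 and 7.87 FPKM in adults against 21.9, 25.1 and 23.1 in nymphs. The 1 cluster that lay the other way, Cluster-3636.0 (titin), was at 3.90, 1.09 and 19.99 FPKM in adults, with 0 listed in every nymph library. Most of the 49 overlapped between stages. Of 12 fat body clusters, 2 separated the stages in each direction, and the list summed to 4.70 to 133 FPKM in adults against 29.2 to 33.1 in nymphs. Its hexamerin (Cluster-9520.5895), a storage protein of immature insects, was at 2.04, 0.34 and 2.09 FPKM in adults against 18.0, 22.1 and 13.3 in nymphs. Its vitellogenins, yolk proteins of adult females, were at 0 in all nymph libraries. In adult replicates 1, 2 and 3 these vitellogenins ran from 0 to 5.49, 0 to 2.85 and 4.76 to 37.2 FPKM. Other lists did not stand higher in nymphs. Of 31 blood cell (haemocyte) clusters, 1 was higher in every nymph library and 2 in every adult library. Of 16 nervous system clusters, 0 separated the stages in either direction. The part of these tissues in the family 1 and amylase differences was not tested.

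The other 5 family 1 clusters were short, from 303 to 723 bases. Cluster-8010.1 was at 0, 1.16 and 17.02 FPKM in adults against 7.82, 6.60 and 1.75 in nymphs, with adult replicate 3 highest. Cluster-8974.1, the 1 member named for lactase-phlorizin hydrolase, was at 0, 1.42 and 0 in adults against 0, 6.10 and 2.66 in nymphs. Cluster-8010.0, Cluster-8974.0 and Cluster-11003.0 missed the filter; each was above 10 FPKM in nymph replicate 1, and the first also in nymph replicate 3. All 9 family 1 clusters carried the glycoside hydrolase family 1 domain in the deposited annotation.

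Within each library the family 1 sum was also set against amylase. Family 1 FPKM per amylase FPKM was 0.00575, 0.00158 and 0.0844 in adult replicates 1, 2 and 3, against 1.83, 0.822 and 2.10 in nymph replicates 1, 2 and 3. Amylase thus exceeded the family 1 sum in all 3 adult libraries and in nymph replicate 2, and the family 1 sum exceeded amylase in nymph replicates 1 and 3. Per 1000 FPKM of venom serine protease, the family 1 sum stood at 0.0476, 0.0541 and 0.309 in adults against 4.37, 0.901 and 1.29 in nymphs. These ratios do not depend on scaling between libraries; they are given as descriptions, because the grouping was made with these values known.

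**Figure D4:**
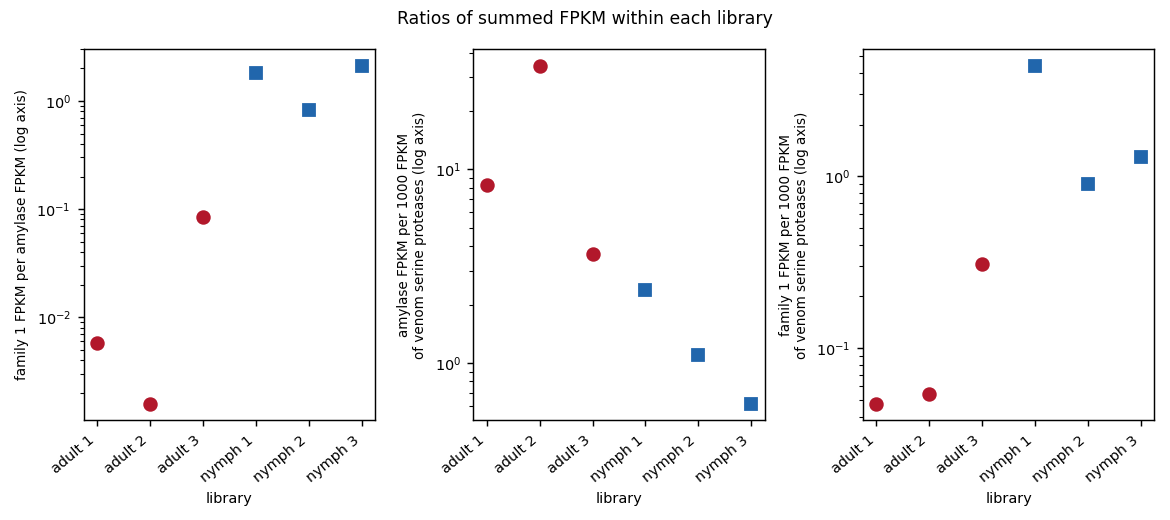
The 3 panels show, on log axes and for each library, family 1 FPKM per amylase FPKM, amylase FPKM per 1000 FPKM of venom serine proteases and family 1 FPKM per 1000 FPKM of venom serine proteases. Adult libraries are red circles and nymph libraries blue squares, and in each panel the stages do not overlap.

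Alpha-glucosidases and maltases, which finish what amylase begins, did not follow amylase as a group. Maltase A1 (Cluster-9520.2065) was at 2.95, 36.6 and 4.93 FPKM in adults against 3.40, 2.44 and 2.22 in nymphs (log2 difference 1.61 ± 0.71 SE, limma adjusted p = 0.53). Maltase 2 (Cluster-9520.5406) was at 7.83, 15.7 and 0 FPKM in adults against 49.2, 21.9 and 11.3 in nymphs (log2 difference -1.70 ± 1.08 SE, limma adjusted p = 0.73). The alpha-glucosidase Cluster-9520.2635 was at 4.30, 20.5 and 3.43 FPKM in adults against 59.5, 10.6 and 8.50 in nymphs (log2 difference -0.95 ± 0.86 SE, limma adjusted p = 0.77). Single libraries carried much of these differences. Maltase 2 lay at -0.37 without adult replicate 3 and -2.88 without adult replicate 1, Cluster-9520.2635 at -0.07 without nymph replicate 1 and -0.26 without adult replicate 3, and maltase A1 at 0.98 without adult replicate 2. Maltase A1 was highest in adult replicate 2, like amylase, while the other 2 were highest in nymph replicate 1, like the leading myrosinase. Cluster-6243.0, named a probable alpha-glucosidase but matching an rBAT amino acid transporter subunit among bug proteins, stayed between 0 and 5.33 FPKM.

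All 11 glycan-processing clusters of the ER and Golgi were tested and none passed; 9 lay above 0 on the log2 scale, beside 38.4% of all clusters tested, with a median of 0.86. Alpha-mannosidase 2 (Cluster-9520.4088, 3742 bases) led this group at 6.34, 67.6 and 30.8 FPKM in adults against 6.01, 15.2 and 3.45 in nymphs. Its protein names point to the Golgi enzyme that trims mannose late in glycan maturation, while its ortholog entry names MAN2C1, a cytosolic mannosidase. Rescaled, it was at 27.8 ± 11.7 FPKM (SD, n = 3) in adults against 6.83 ± 3.91 in nymphs, without overlap (log2 difference 1.92 ± 0.57 SE, limma adjusted p = 0.29), whereas the deposited values overlapped.

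Glucosidase II removes glucose from new glycoproteins and so governs their release from the ER chaperones. Its non-catalytic beta subunit appeared in 3 clusters. Cluster-9520.6724 was at 1.86, 12.1 and 7.21 FPKM in adults against 0.87, 0.83 and 0.76 in nymphs, with no overlap (log2 difference 2.03 ± 0.64 SE, limma adjusted p = 0.31). It reached the filter through the adult libraries alone, so some difference was bound to show. Cluster-9520.6725 overlapped between stages, at 3.38, 23.0 and 3.53 FPKM against 9.13, 3.95 and 1.69. Cluster-5400.0, whose best nucleotide match is a moth genome although its protein match is a stink bug, lay the other way, at 0, 8.84 and 9.78 FPKM in adults against 5.91, 11.3 and 9.23 in nymphs. The catalytic partner, neutral alpha-glucosidase AB (Cluster-9520.6531), was at 2.62, 21.7 and 9.81 FPKM in adults against 8.13, 3.91 and 3.98 in nymphs, so the subunits gave no single pattern.

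The remaining members of this group stood low. ER degradation-enhancing alpha-mannosidase-like protein 3 (Cluster-9520.3227), which marks misfolded glycoproteins for disposal, was at 0.92, 24.1 and 6.45 FPKM in adults against 2.11, 3.45 and 1.15 in nymphs (log2 difference 1.29 ± 0.69 SE, limma adjusted p = 0.67). Its rescaled values did not overlap between stages, and its log2 difference was 0.67 without adult replicate 2. Adult replicate 2 was the highest library for 10 of the 11 glycan-processing clusters and for 33.8% of all clusters listed above 0, and its part in the differences of this group was not tested. Per 1000 FPKM of venom serine protease, the 11 clusters summed to 0.277, 0.416 and 0.593 FPKM in adults against 0.556, 0.261 and 0.359 in nymphs. On that within-library scale the stages overlapped.

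The lysosomal enzymes split. Beta-glucuronidase (Cluster-9520.5512), which removes glucuronic acid from glycosaminoglycans, was at 7.99, 68.8 and 10.8 FPKM in adults against 7.44, 6.27 and 2.22 in nymphs. Every adult value exceeded every nymph value as deposited, but adult replicate 1 and nymph replicate 1 were close, and the rescaled stages overlapped (log2 difference 2.01 ± 0.71 SE, limma adjusted p = 0.37, and 2.67 without adult replicate 3). Beta-galactosidase (Cluster-9520.1695), which removes terminal galactose, lay the other way, at 0, 2.72 and 3.49 FPKM in adults against 36.8, 12.3 and 5.34 in nymphs. Its stages did not overlap on either scale (log2 difference -2.70 ± 0.80 SE, limma adjusted p = 0.29), and the difference was -1.97 without nymph replicate 1. Nymph replicate 1 was again the highest library, as in the 3 leading myrosinase clusters.

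Alpha-L-fucosidase (Cluster-9520.6287), which removes fucose, showed no such split, at 3.12, 23.9 and 12.5 FPKM in adults against 14.2, 7.36 and 3.26 in nymphs. Lysosomal alpha-glucosidase (Cluster-9520.6665), the enzyme that degrades glycogen in lysosomes, was at 5.77, 11.8 and 15.4 FPKM in adults against 10.99, 3.62 and 1.17 in nymphs (log2 difference 1.45 ± 0.72 SE, limma adjusted p = 0.62, and 2.11 without nymph replicate 1). Both overlapped between stages. Of the 13 lysosomal clusters, 8 were tested, 5 of them above 0 and 3 below 0 on the log2 scale, beside 38.4% of all clusters tested above 0. The non-lysosomal glucosylceramidase, which cleaves glucose from ceramide outside the lysosome, stayed at or below 5.35 FPKM in its 3 clusters; the longest, Cluster-9520.856, was at 0.44, 4.30 and 1.74 in adults against 2.58, 2.83 and 2.11 in nymphs. Cluster-9520.7414 and Cluster-9520.7415, both short, were listed at 0 in 3 and 4 libraries.

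The 11 members that missed the filter were mostly fragments, 9 of them under 800 bases. Of the 11, 5 were listed at 0 in all adult libraries and 2 in all nymph libraries. Beta-mannosidase Cluster-12150.0 (316 bases), for example, was at 8.38 and 12.4 FPKM in nymph replicates 1 and 3 and listed at 0 elsewhere. The highest value lay in nymph replicate 1 for 5, in adult replicate 2 for 4 and in nymph replicate 3 for 2. These are the 3 libraries that listed the most clusters of any kind at 1 FPKM or more.

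Genes that work beside the members, in 4 companion lists, gave 1 call in all. The trehalose transporter Tret1 (Cluster-9520.2483), which carries the blood sugar of insects into cells, was at 18.0, 166.8 and 31.2 FPKM in adults against 0.42, 0 and 0.12 in nymphs (log2 difference 5.47 ± 0.66 SE, limma adjusted p = 0.0074). It was the 1 call among 49 tested clusters for sugar uptake and glycogen, and it was not called without adult replicate 1, 2 or 3. It reached the filter through the adult libraries alone, so some difference was bound to show. The median log2 difference of the 49 was -0.41, and 16 of them lay above 0, beside 38.4% of all clusters tested. At an unadjusted p under 0.05, 3 lay higher and 2 lower in adults, beside 2.95% and 6.09% of all clusters tested. Another Tret1 cluster, Cluster-9520.5639, was at 451 FPKM in nymph replicate 1 and between 4.56 and 70.4 in the others. The leading myrosinase was highest in that same library.

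Of 24 tested clusters for N-glycan synthesis and quality control in the ER, 0 were called and the median log2 difference was 0.62. Above 0 lay 17 of the 24, beside 38.4% of all clusters tested. Calreticulin (Cluster-9520.4010), the chaperone that binds glycoproteins trimmed by glucosidase II, was at 24.4, 332 and 79.0 FPKM in adults against 59.8, 40.1 and 19.7 in nymphs. At an unadjusted p under 0.05, 4 of the 24 lay higher in adults and 0 lower, beside 2.95% and 6.09% of all clusters tested, and their limma adjusted p began at 0.36. Among 44 tested lysosomal hydrolases and partners, 0 were called and the median was -0.85. Of the 44, 15 lay above 0, beside 38.4% of all clusters tested. At an unadjusted p under 0.05, 5 passed in each direction, beside the same 2.95% higher and 6.09% lower. Cathepsins, the proteases of lysosomes and of digestion in bugs, made up 26 of the 44, and the most abundant, cathepsin L Cluster-9520.4327, was at 65.1, 105.4 and 5.94 FPKM in adults against 1683, 89.0 and 65.6 in nymphs. Its high value in nymph replicate 1 coincided with those of the leading myrosinase, maltase 2, alpha-glucosidase and beta-galactosidase clusters, and whether they share a source was not tested. The cathepsins with the smallest p lay the other way. Cathepsin D Cluster-9520.1944 was at 23.6, 53.5 and 36.0 FPKM in adults against 1.64, 2.23 and 5.65 in nymphs (log2 difference 3.51 ± 0.64 SE, limma adjusted p = 0.069), and cathepsin L Cluster-9520.6348 and Cluster-9520.6626 lay at 2.68 and 4.45 (limma adjusted p = 0.18 and 0.27).

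Other carbohydrate hydrolases, 13 tested, gave 0 calls with limma, and their median log2 difference was -0.29. Of the 13, 5 lay above 0, beside 38.4% of all clusters tested. At an unadjusted p under 0.05, 2 passed, both higher in adults, beside 2.95% of all clusters tested. Both are lysozymes, which break bacterial cell walls. Lysozyme Cluster-732.0 was at 11.5, 17.4 and 7.79 FPKM in adults, with 0 listed in every nymph library (limma adjusted p = 0.12), so it too reached the filter through the adults alone. B-type lysozyme Cluster-9520.2617 was at 46.2, 236.9 and 39.9 FPKM in adults against 10.5, 6.66 and 12.8 in nymphs (limma adjusted p = 0.18). Lysozymes did not share 1 direction. Cluster-9520.3528 and Cluster-9520.4204, also named lysozyme, lay at -0.99 and -1.03 on the log2 scale (limma adjusted p = 0.73 and 0.76). The former was at 13.6, 38.8 and 138.8 FPKM in adults against 159.8, 92.3 and 76.3 in nymphs. Trehalase Cluster-9520.4904, which splits trehalose into glucose, overlapped between stages at 8.66, 12.2 and 36.8 FPKM against 47.3, 36.7 and 13.0.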

How the data were processed

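Per the labels' protocols, TRIzol was used for total RNA and the NEBNext Ultra RNA kit for library preparation. The authors deposited FPKM per cluster and library. Without roles, DESeq2 1.20.0, featureCounts 1.5.0-p3, HISAT2 2.0.5, CASAVA 1.8 and fastp are named, per the submitters' processing notes. Which of them made the FPKM is not given, and no genome or sequence was used here.

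FPKM were divided by a median-ratio factor per library, taken from 4653 clusters with no 0 (0.2835 for adult replicate 1, 0.9902 to 1.643 for the others). Stage was tested with limma 3.58.1 in R 4.3.3 (trend and robust) on log2(rescaled FPKM + 1), a scale that understates folds of low clusters, for clusters at 1 FPKM or more in at least 3 libraries, with Benjamini-Hochberg adjustment over all of them. The script was tested on simulated data, with 4 false calls. Whole fragments were recovered by fitting each library's total and a length offset of 217 to 293 bases; 99.4% to 99.8% of values in longer clusters lay within 0.15 of a whole number, against 30% by chance. The offset weighs most on short clusters. Fragment numbers cover counting error only.

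Members, role groups and lists were chosen with earlier results of these data known. Roles came from text patterns on names; glucosidase 2 subunit beta, non-lysosomal glucosylceramidase and TTLL4 were reassigned after the names were seen. Named were all amylases, the 4 members per role with the highest mean FPKM, any called member, and up to 6 members per direction with the smallest p among those without overlap between stages and with a mean of at least 5 FPKM in the higher one. Other members and companion clusters were chosen after their values were seen. The fits were repeated with other scalings, filters, pseudocounts and weights, with a replicate block and without each library.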

Additional observations from a re-analysis of the deposited data

How the results depend on the processing

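The members that passed the filter of each alternative were refitted, 26 to 34 of the 35 with single libraries left out. Directions were summarized for 15. These were the members at an unadjusted p under 0.05 with the chosen settings, and Cluster-9520.3227, Cluster-9520.6665, Cluster-9520.5406 and Cluster-9520.2635. Each kept its direction in 17 alternative fits, or in the 14 that gave a value for Cluster-9520.6724. Choosing members by a small p favours a stable direction. Outside the 15, Cluster-9520.1932 lay at 0.095 with the chosen settings and at -0.574 with 0.1 as pseudocount. Members called numbered 0 with the chosen settings, 1 with a mean FPKM filter, 2 with no filter, 1 after quantile normalization, and 0 to 2 with single libraries left out, the 2 without adult replicate 3; the cause was not tested. The members' median log2 difference was 0.60 when members were taken from the first protein match alone, -0.60 with a mean FPKM filter, 0.54 after quantile normalization and 0.68 with library quality weights, and -0.20 to 0.54 with single libraries left out. Calls over all clusters, 28 with the chosen settings, numbered 65 with a mean FPKM filter, 12 with 0.1 as pseudocount, 104 with no filter, 72 on FPKM as deposited, 65 with library quality weights, and 1 to 54 with single libraries left out. Calls in the companion lists, 1 with the chosen settings, numbered 4, 5, 2 and 3 with a mean FPKM filter, with no filter, on FPKM as deposited and with library quality weights, and 0 to 2 with single libraries left out. A replicate block gave 29 calls over all clusters and 0 among the members. Same-numbered libraries of the stages correlated at 0.165, -0.0427 and 0.213 in their deviations. Adult replicates 1 and 3 correlated best with the nymph library of the same number, and adult replicate 2 with nymph replicate 1 (0.137). With 3 libraries per stage, these correlations cannot decide whether the numbers pair the samples. Depth limits the members near 1 FPKM: Cluster-9520.6724 rests on 12 to 14 fragments in each nymph library.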

Other observations

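The 2 clusters of TTLL4, an enzyme that adds glutamate to tubulin, came in by the letters of their name alone. Cluster-8605.0 was at 0.81, 3.03 and 0.06 FPKM in adults against 3.02, 3.28 and 2.55 in nymphs. Cluster-8605.1 was at 0, 3.18 and 0 FPKM in adults against 0, 3.54 and 3.62 in nymphs. Both overlapped between stages. Of all 46 members, 23 were highest in adult replicate 2, 12 in nymph replicate 1 and 0 in adult replicate 1. Cluster-12150.0 and Cluster-5343.0, both named beta-mannosidase, had moth genomes of genera outside the exclusion rule as best nucleotide match, with stink bug proteins as best protein match.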
